A study of Mus musculus with 2 samples.

Results

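The potassium, sodium and calcium channel genes of muscle FAPs were taken as every gene of the count tables whose symbol starts with *Kcn*, with *Scn* and a digit, or with *Cacn*, and that had 20 or more UMIs (counted transcript molecules) over both libraries together. Of 139 such symbols, 69 met the minimum, 47 had from 1 to 19 UMIs and 23 had none, among 31053 genes in the tables and 14729 genes with 20 or more UMIs. The 69 members comprised 46 potassium, 7 sodium and 16 calcium channel genes. The common name "voltage-gated" does not hold for every symbol of these families. Inward rectifier (*Kcnj*) and two-pore-domain (*Kcnk*) channels have no voltage sensor, small-conductance *Kcnn* channels open with intracellular calcium, auxiliary subunits form no pore, and *Kcnq1ot1* is a non-coding antisense RNA. The members are therefore called channel genes.

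Potassium channels set the resting membrane potential and end depolarization, while voltage-gated sodium and calcium channels open on depolarization and carry current or calcium into the cell. Pore-forming subunits join auxiliary subunits that steer their trafficking and gating. These families are best known from neurons and muscle fibers, and fibroblast-like cells, which fire no action potentials under ordinary conditions, also transcribe many of them.

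FAPs were sorted as Lin–Vcam1–Sca1+ cells from limb muscle of C57BL/6 mice at 3 weeks of age and measured by 10x 3′ scRNA-Seq. One genotype was Bap1f/f, with floxed alleles and no Cre, and the other Prx1-Cre;Bap1f/f, in which Cre acts in the limb mesenchymal lineage from which FAPs derive and not in FAPs alone. There was 1 library per genotype, and the labels do not give the number of mice behind each. Counts came from 4103 cells with 51015705 UMIs in the library labelled *Bap1* WT and 4378 cells with 49540066 UMIs in that labelled *Bap1* ΔMPC, and 5 cell barcodes were present in both. *Bap1* itself had 897 UMIs (17.6 CPM) in the library labelled *Bap1* WT against 1072 UMIs (21.6 CPM) in that labelled *Bap1* ΔMPC, a log2 ratio of 0.30 (interval 0.17 to 0.43). Its counts were thus no lower in that labelled *Bap1* ΔMPC, and since counts per gene do not show which exons a transcript holds, each direction is that of the libraries as labelled. The study reports from other measures that *Bap1* was disrupted in FAPs of Prx1-Cre;Bap1f/f mice, which does not check these libraries. Levels are UMIs summed over cells and scaled to a total of 1000000 (CPM). Ratios between libraries are on the log2 scale with that labelled *Bap1* WT as the base, its value is given first where values of both stand side by side, and a gene is called higher or lower past 3-fold, with no test. Intervals are exact at 95% and cover counting error only.

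Cells were divided by the summed UMIs of *Pi16*, *Sema3c*, *Anxa3* and *Efemp1*. Those with 25 or more per 10000 UMIs were called Dpp4-type, and numbered 1050 (25.6%, interval 24.3% to 26.96%, exact Clopper-Pearson) in the library labelled *Bap1* WT and 1251 (28.6%, interval 27.2% to 29.9%) in that labelled *Bap1* ΔMPC. The score is continuous, and 210 and 337 cells lay between 20 and 30. Among Dpp4-type cells the median score was 59.7 and 49.1, and 9.05% and 13.7% of them scored under 30. The 4 score genes summed to 6613 and 5459 CPM in these cells, a log2 ratio of -0.28. Dpp4-type cells were thus not matched on the score between the libraries. The 4 markers *Dpp4*, *Efhd1*, *Cd55* and *Fbn1*, which took no part in the score, had a median of 54.7 per 10000 UMIs in Dpp4-type and 9.83 in other cells of the library labelled *Bap1* WT, against 67.9 and 18.1 in that labelled *Bap1* ΔMPC. Medians of the 5 Cxcl14-type markers were 1.11 and 22.8 in the former library, and 1.38 and 19.4 in the latter. Dpp4-type cells were deeper, with medians of 13635 against 11829 UMIs in the library labelled *Bap1* WT and 11661 against 10733 in that labelled *Bap1* ΔMPC.

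Markers of FAPs were abundant, with 6 of 6 detected, and *Pdgfra* had 17691 and 14766 UMIs in the libraries labelled *Bap1* WT and *Bap1* ΔMPC. Their list summed to 38092 and 24965 CPM, a log2 ratio of -0.61, with 4 of 6 genes lower in the library labelled *Bap1* ΔMPC. Single markers of other cell types were at or near 0, but other genes of most of these lists were detected, as the sums show. The muscle stem cell genes *Pax7*, *Myod1* and *Myf5* and the immune genes *Ptprc* and *Cd3e* had no UMI in either library, the Schwann gene *Sox10* had 9 and 0, and the neuronal gene *Snap25* had 1 and 0. The study's methods state that cells high in markers of other muscle-resident cells had been removed, and do not name the markers. These low counts thus do not measure how pure the sort was. Summed lists in the libraries labelled *Bap1* WT and *Bap1* ΔMPC had 4.31 and 6.22 CPM for neurons, 59.4 and 120.4 CPM for Schwann cells, with *S100b* rising from 856 to 3154 UMIs, 71.7 and 41.9 CPM for myofibers, 13.9 and 9.79 CPM for endothelial cells, 74.2 and 56.3 CPM for mural cells, 32.3 and 20.02 CPM for erythroid cells and 5.78 and 7.21 CPM for immune cells. The tendon list had 176 and 434 CPM, with 6 of 6 genes higher in the library labelled *Bap1* ΔMPC and 3 of them past 3-fold, and its most abundant gene *Thbs4* had 7432 and 16370 UMIs. The adipocyte list had 6.21 and 75.6 CPM, with *Fabp4* the most abundant at 247 and 2352 UMIs and *Cidec* at 0 and 5. Cells with 3 or more UMIs of the tendon list per 10000 numbered 449 and 657, and those with as many of the adipocyte list 12 and 83. The part of any of these cells in the results on channel genes was not tested, also where a ratio is given without some of them.

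Over all cells, 11 of 69 members differed over 3-fold between the libraries, against 5.27% of all genes with 20 or more UMIs. Of these, 10 were higher in the library labelled *Bap1* ΔMPC, against 3.15% of all genes, and 1 was lower, against 2.12%. Genes with few UMIs passed 3-fold more often. Among genes with 20 to 99 UMIs, 8 of 27 members passed against 16.7% of all genes, and among those with 100 or more UMIs, 3 of 42 members passed against 3.11%. These 3 were *Kcnma1*, *Kcnmb4* and *Cacng4*. Past 2-fold, 21 members differed, against 12% of all genes. The median log2 ratio of the members was 0.325, against 0.0962 over all genes, and its absolute value had a median of 0.625 against 0.263. With TMM factors, *Kcnmb4* and *Scn2b* were under 3-fold, and with cells thinned to 5000 UMIs *Kcnj2* was, at 1.31.

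Potassium channel genes summed to 461 CPM in the library labelled *Bap1* WT against 442 CPM in that labelled *Bap1* ΔMPC, a log2 ratio of -0.06 (interval -0.09 to -0.03). That sum was mostly *Kcnq1ot1*, and the other 45 genes had 155 and 179 CPM, a log2 ratio of 0.21 (interval 0.17 to 0.26), so the direction turned without that RNA. Sodium channel genes summed to 146 and 221 CPM, with a log2 ratio of 0.60 (interval 0.55 to 0.64), and calcium channel genes to 205 and 229.8 CPM, with one of 0.16 (interval 0.13 to 0.20). The sodium sum was thus the one with the largest ratio of the 3 families, and none passed 3-fold. A sum weighs abundant genes most. By the median log2 ratio of its members, sodium was the lowest family, at 0.14 against 0.30 for potassium and 0.45 for calcium. With TMM factors, 4 sodium channel genes had positive and 3 negative ratios. Scaling by TMM factors, which moved ratios over all cells by 0.10 and those in other cells by 0.11, kept the sign of each sum, with 0.07 for calcium.

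**Figure D1:**
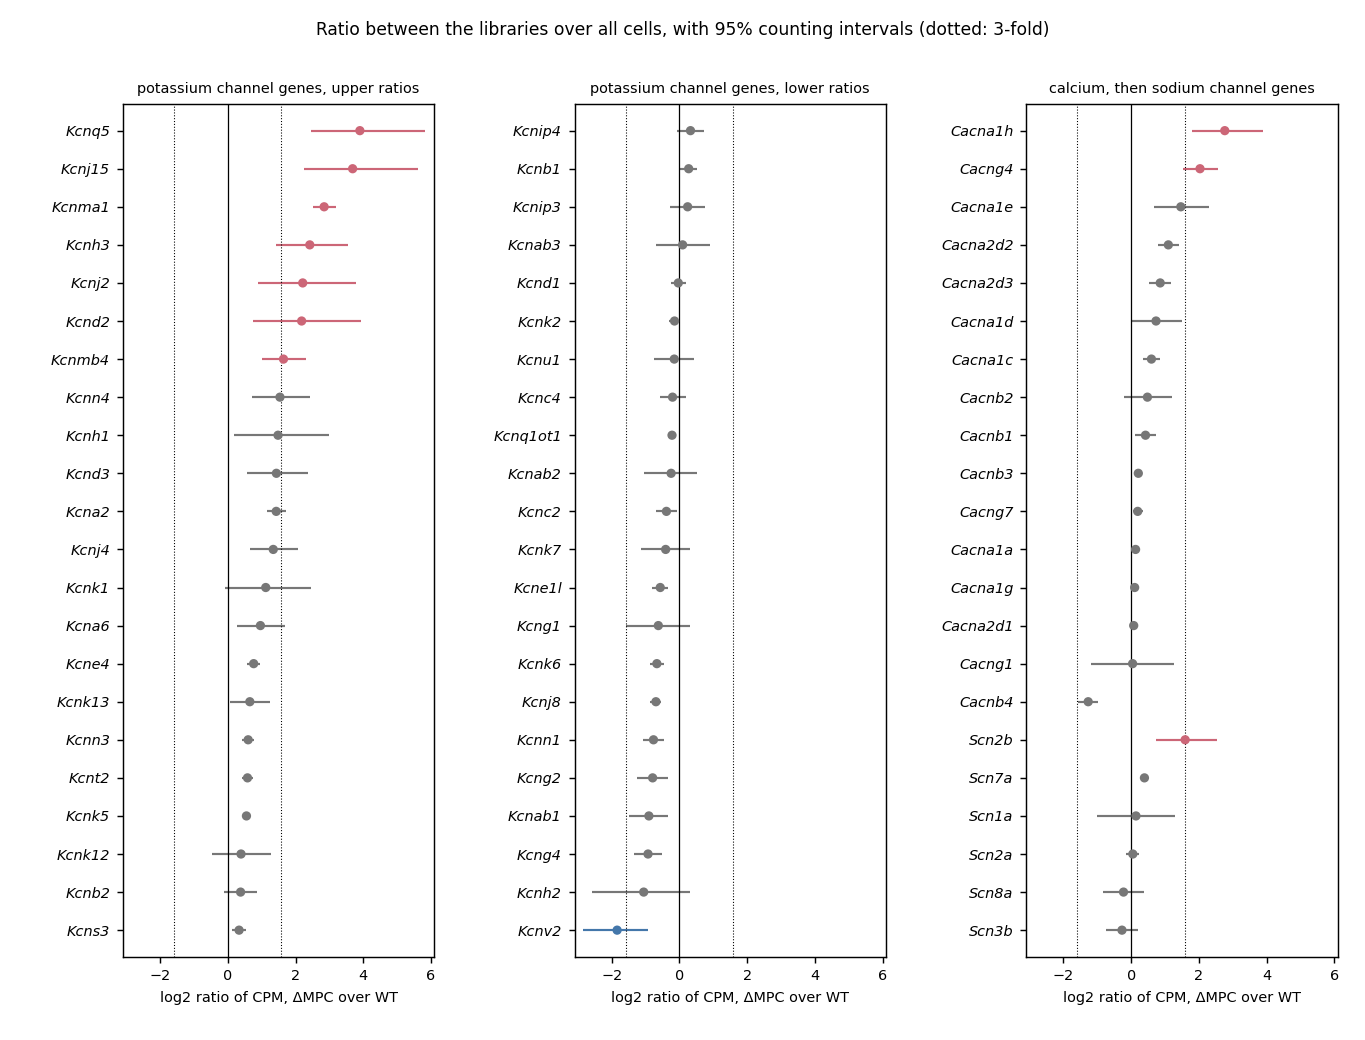
Log2 ratio of CPM, the library labelled *Bap1* ΔMPC over that labelled *Bap1* WT, over all cells for channel genes, ordered by ratio in each panel. Points are ratios, lines are 95% counting intervals, dotted lines mark 3-fold, and colour marks the 10 genes past 3-fold higher (red) and *Kcnv2* past 3-fold lower (blue); scaling by TMM factors moves all points by 0.10 to the left, which turns no called gene around.

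Among the calcium- or sodium-activated potassium channels, *Kcnma1* (chr14:23289431-24014491, minus strand, mm10) encodes the pore of the large-conductance BK channel, which opens with calcium and depolarization together. It had 87 UMIs (1.71 CPM, interval 1.37 to 2.10) in the library labelled *Bap1* WT against 607 UMIs (12.3 CPM, interval 11.3 to 13.3) in that labelled *Bap1* ΔMPC. The level was high in the library labelled *Bap1* ΔMPC alone, and the log2 ratio was 2.84 (interval 2.52 to 3.19). In Dpp4-type cells, *Kcnma1* had 6 UMIs (0.425 CPM) and 56 UMIs (3.79 CPM), and in other cells 81 UMIs (2.20 CPM) and 551 UMIs (15.8 CPM), with log2 ratios of 3.16 (interval 1.95 to 4.66) and 2.85 (interval 2.51 to 3.21). It was thus past 3-fold in both classes of cells, at a lower level in Dpp4-type cells of the libraries. *Kcnmb4*, the BK auxiliary subunit beta 4, had 28 UMIs (0.549 CPM) and 85 UMIs (1.72 CPM), a log2 ratio of 1.64 (interval 1.01 to 2.32). It rose in other cells too, with a log2 ratio of 1.87 (interval 1.17 to 2.63), and had 6 and 9 UMIs in Dpp4-type cells of the libraries.

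*Kcnma1* had a higher level in cells with tendon markers, at 6.84 and 42.3 CPM in the libraries labelled *Bap1* WT and *Bap1* ΔMPC, against 1.01 and 6.58 CPM in cells with neither tendon nor adipocyte markers. Without the cells holding either kind of marker, its log2 ratio was 2.71 (interval 2.25 to 3.198). *Kcnmb4* had 0.489 and 4.02 CPM in cells with tendon markers, and its ratio without cells of either kind was 1.22 (interval 0.51 to 1.97), under 3-fold.

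The other members of this group had smaller ratios over all cells. *Kcnt2*, a sodium-activated potassium channel, had 499 UMIs (9.78 CPM) and 725 UMIs (14.6 CPM), a log2 ratio of 0.58 (interval 0.41 to 0.75). *Kcnn3*, a small-conductance channel, had 457 UMIs (8.96 CPM) and 673 UMIs (13.6 CPM), a log2 ratio of 0.60 (interval 0.43 to 0.78). *Kcnn4*, the intermediate-conductance channel, had 13 UMIs (0.352 CPM) and 44 UMIs (1.27 CPM) in other cells, where it rose with a log2 ratio of 1.84 (interval 0.93 to 2.86). *Kcnn1* and *Kcnu1* had ratios of -0.77 and -0.15 over all cells, and *Kcnu1* is grouped here by gene family and not by its activation. The 6 genes together had 26.5 CPM in the library labelled *Bap1* WT against 45.1 CPM in that labelled *Bap1* ΔMPC. The 1 gene of them past 3-fold over all cells was *Kcnma1*, where 5.27% of all genes passed.

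The voltage-gated potassium pore subunits numbered 15, of which 9 had positive and 6 negative log2 ratios over all cells, where 60.7% of all genes with 20 or more UMIs had a positive one. *Kcnq5* (chr1:21398403-21961942, minus strand), a subunit of M-type channels that open near the resting potential, had 4 UMIs (0.0784 CPM, interval 0.0214 to 0.201) in the library labelled *Bap1* WT against 58 UMIs (1.17 CPM, interval 0.889 to 1.51) in that labelled *Bap1* ΔMPC. It was close to 0 in the library labelled *Bap1* WT, and its log2 ratio was 3.90 (interval 2.47 to 5.82). Most of its UMIs came from Dpp4-type cells, with 3 UMIs (0.213 CPM) and 48 UMIs (3.25 CPM), a log2 ratio of 3.93 (interval 2.30 to 6.26). *Kcnh3*, an ether-a-go-go family subunit, had 10 UMIs (0.196 CPM) and 52 UMIs (1.05 CPM), with a log2 ratio of 2.42 (interval 1.43 to 3.56) over all cells and 2.26 (interval 1.25 to 3.41) in other cells. *Kcnd2*, a subunit of rapidly inactivating A-type channels, had 5 UMIs (0.0980 CPM) and 22 UMIs (0.444 CPM), a log2 ratio of 2.18 (interval 0.74 to 3.94). Both were thus low in the library labelled *Bap1* WT and rested on few counts. *Kcna6*, a delayed rectifier subunit, rose in Dpp4-type cells, from 3 to 25 UMIs with a log2 ratio of 2.99 (interval 1.28 to 5.37), and had 25 and 28 UMIs in other cells.

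*Kcnd2* in other cells had 4 and 21 UMIs and a log2 ratio of 2.48 (interval 0.91 to 4.48). *Kcna2*, which encodes a delayed rectifier subunit, stayed under 3-fold with 151 UMIs (2.96 CPM) and 395 UMIs (7.97 CPM), a log2 ratio of 1.43 (interval 1.16 to 1.71). The remaining 10 pore genes ranged from -1.06 for *Kcnh2* to 1.48 for *Kcnh1* over all cells. The 15 genes summed to 34.7 CPM in the library labelled *Bap1* WT against 39.1 CPM in that labelled *Bap1* ΔMPC. The 5 modifier subunits, which form no channel alone and alter those of other subunits, had 4 negative ratios and 1 positive one. Of all genes, 60.7% had a positive one over all cells. Among these subunits, *Kcnv2* had 48 UMIs (0.941 CPM) and 13 UMIs (0.262 CPM). It was high in the library labelled *Bap1* WT and was the 1 member past 3-fold lower over all cells, at -1.84 (interval -2.85 to -0.94) on the log2 scale, and it fell in other cells as well, at -2.20 (interval -3.42 to -1.15). *Kcng1*, *Kcng2* and *Kcng4* had ratios from -0.93 to -0.63, and *Kcns3* one of 0.33.

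Of the 4 inward rectifiers, which pass current near the resting potential, 2 rose over all cells, against 3.15% of all genes. Both had 20 to 99 UMIs, a range in which 16.7% of all genes passed in either direction. *Kcnj15* had 4 UMIs (0.0784 CPM) and 50 UMIs (1.01 CPM), a log2 ratio of 3.69 (interval 2.24 to 5.62). *Kcnj2*, a classical strong inward rectifier, had 6 UMIs (0.118 CPM) and 27 UMIs (0.545 CPM), a log2 ratio of 2.21 (interval 0.91 to 3.78). Both were nearly absent from the library labelled *Bap1* WT, and in other cells their ratios were 3.48 (interval 2.02 to 5.42) and 2.35 (interval 0.93 to 4.10). *Kcnj15* had 1 and 33 UMIs in cells with tendon markers, and 3 and 17 in cells with neither tendon nor adipocyte markers. Without cells with tendon or adipocyte markers, its ratio was 2.64 (interval 0.85 to 5.05). *Kcnj4* rose in Dpp4-type cells, from 4 to 18 UMIs, with a log2 ratio of 2.10 (interval 0.50 to 4.13), and had 1.34 (interval 0.66 to 2.06) over all cells.

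*Kcnj8* (chr6:142564837-142571614, minus strand) encodes the pore of an ATP-sensitive potassium channel, and its neighbor *Abcc9* encodes the sulfonylurea receptor that completes that channel. In Dpp4-type cells, *Kcnj8* had 263 UMIs (18.6 CPM, interval 16.4 to 21.03) in the library labelled *Bap1* WT against 78 UMIs (5.28 CPM, interval 4.18 to 6.59) in that labelled *Bap1* ΔMPC. The level was high in the library labelled *Bap1* WT alone, and *Kcnj8* fell with a log2 ratio of -1.82 (interval -2.20 to -1.45). Among other cells it had 591 UMIs (16.02 CPM) and 434 UMIs (12.5 CPM), a log2 ratio of -0.36 (interval -0.54 to -0.18), and over all cells -0.70 (interval -0.86 to -0.54). *Abcc9* had 164 UMIs (11.6 CPM) and 38 UMIs (2.57 CPM) in Dpp4-type cells, for a ratio of -2.17 (interval -2.72 to -1.66), and 1168 UMIs (22.9 CPM) and 412 UMIs (8.32 CPM) over all cells, a log2 ratio of -1.46 (interval -1.63 to -1.30). The genes were thus lower together, and the difference of *Kcnj8* between the classes of cells was not tested.

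Over the score itself, with cells grouped as under 5, 5 to 15, 15 to 25, 25 to 50 and 50 or more per 10000 UMIs, *Kcnj8* had 15.6, 16.5, 16.96, 24.8 and 15.005 CPM in the library labelled *Bap1* WT. In the library labelled *Bap1* ΔMPC it had 14.8, 10.1, 4.83, 6.35 and 4.11 CPM. The levels were alike in the cells with the lowest scores, and that of the library labelled *Bap1* ΔMPC was the lower one in each of the other 4 ranges. *Abcc9* had 29.7, 24.8, 20.7, 18.3 and 7.67 CPM, and 11.96, 9.27, 7.24, 3.89 and 1.13 CPM, lower in the library labelled *Bap1* ΔMPC over each range of the score. *Kcnj8* and *Abcc9* are also known from mural cells. The mural list, which holds *Abcc9*, had its most abundant gene *Cspg4* at 1847 and 1423 UMIs, *Rgs5* at 59 and 32 and *Myh11* at 19 and 113. Without the 125 and 206 cells holding a UMI of *Rgs5*, *Myh11* or *Mcam*, the *Kcnj8* ratio in Dpp4-type cells was -1.79 and that of *Abcc9* -2.16.

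**Figure D2:**
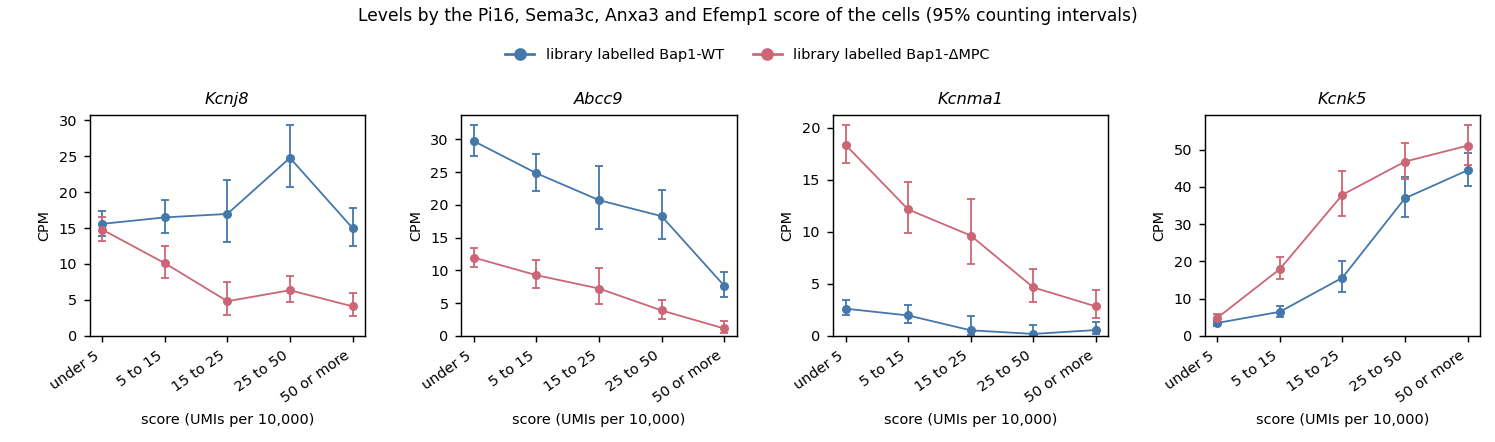
CPM of *Kcnj8*, *Abcc9*, *Kcnma1* and *Kcnk5* in each library against the summed UMIs of *Pi16*, *Sema3c*, *Anxa3* and *Efemp1* per 10000 UMIs of a cell, in 5 ranges, with 95% counting intervals. *Kcnj8* lies at 15.6 and 14.8 CPM in the lowest range and at 15.005 and 4.11 CPM in the highest, while *Kcnk5* climbs with the score in both libraries.

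Promoter sequences are shown for *Kcnj8* and *Abcc9*, which were lower together, and for *Kcnma1* and *Kcnq5*, the potassium channel genes that rose both over all cells and in Dpp4-type cells. They come from RefSeq (GRCm38.p6) and run from 250 bases before to 50 bases after the annotated start. The table held a window for 50 of the 69 members, too few to compare the promoters of the members as a set. The motif searched was CG, which reads the same on both strands and is set in capitals. It occurs in 94.2% of the 27025 windows of this length, with a median of 7 per window. The windows of *Kcnj8* (chr6:142571565-142571864) and *Abcc9* (chr6:142702225-142702524) held 9 and 16, and 46.2% and 33.5% of all windows held as many or more. The window of *Kcnma1* (chr14:24004156-24004455) held 36, with 6.02% of windows holding as many or more, and the first of 2 windows of *Kcnq5* (chr1:21962601-21962900) held 3, with 76.2%. The second window of *Kcnq5* (chr1:21961893-21962192), which overlaps the GENCODE end of that gene where the first lies beyond it, held 20, with 26.8%. The window of *Kcnma1* lies inside the GENCODE span of the gene. Nothing is read from the CG counts, and all 4 genes lie on the minus strand.
Kcnj8: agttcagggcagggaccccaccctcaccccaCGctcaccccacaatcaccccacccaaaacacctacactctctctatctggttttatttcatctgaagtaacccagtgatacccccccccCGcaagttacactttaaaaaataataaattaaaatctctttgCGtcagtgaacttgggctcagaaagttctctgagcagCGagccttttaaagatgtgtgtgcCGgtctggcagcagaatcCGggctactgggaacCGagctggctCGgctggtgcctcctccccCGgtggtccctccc
Abcc9: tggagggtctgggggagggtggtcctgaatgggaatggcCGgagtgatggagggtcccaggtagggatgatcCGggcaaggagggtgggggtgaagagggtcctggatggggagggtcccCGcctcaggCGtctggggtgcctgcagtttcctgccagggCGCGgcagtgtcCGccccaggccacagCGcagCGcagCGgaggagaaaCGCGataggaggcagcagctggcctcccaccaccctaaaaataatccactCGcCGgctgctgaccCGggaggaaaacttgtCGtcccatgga
Kcnma1: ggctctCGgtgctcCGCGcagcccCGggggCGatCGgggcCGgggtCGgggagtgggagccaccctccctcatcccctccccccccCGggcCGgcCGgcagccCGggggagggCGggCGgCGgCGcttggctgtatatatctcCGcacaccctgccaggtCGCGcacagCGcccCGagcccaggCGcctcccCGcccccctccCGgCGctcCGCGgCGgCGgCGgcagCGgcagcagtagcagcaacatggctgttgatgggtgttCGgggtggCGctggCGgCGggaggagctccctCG
Kcnq5: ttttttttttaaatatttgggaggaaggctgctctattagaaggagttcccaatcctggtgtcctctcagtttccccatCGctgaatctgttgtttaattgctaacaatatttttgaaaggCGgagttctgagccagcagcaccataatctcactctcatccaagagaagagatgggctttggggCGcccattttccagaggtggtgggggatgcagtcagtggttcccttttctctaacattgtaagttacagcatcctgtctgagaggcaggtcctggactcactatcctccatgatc

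None of the 7 two-pore-domain channels, which carry background potassium current, passed 3-fold between the libraries over all cells or in other cells. In Dpp4-type cells, 4 of them met the minimum of UMIs, and none of these passed. Of all genes, 5.27% passed over all cells, 5.86% in other cells and 3.52% in Dpp4-type cells. With so few channels, none passing does not set this group apart from all genes. *Kcnk5*, an acid-sensitive channel, had 798 UMIs (15.6 CPM, interval 14.6 to 16.8) in the library labelled *Bap1* WT against 1135 UMIs (22.9 CPM, interval 21.6 to 24.3) in that labelled *Bap1* ΔMPC, a log2 ratio of 0.55 (interval 0.42 to 0.68). It had 41.7 CPM in Dpp4-type and 5.69 CPM in other cells of the library labelled *Bap1* WT, against 48.8 and 11.9 CPM in that labelled *Bap1* ΔMPC. It was thus higher in Dpp4-type cells of both libraries, with log2 ratios of Dpp4-type over other cells of 2.87 (interval 2.64 to 3.11) and 2.04 (interval 1.86 to 2.21). Over the 5 ranges of the score, its level in the library labelled *Bap1* WT went from 3.48 to 44.4 CPM, while it went from 4.84 to 51.1 CPM in that labelled *Bap1* ΔMPC. *Kcnk2*, a mechanosensitive channel, had 725 UMIs (14.2 CPM) and 636 UMIs (12.8 CPM), a log2 ratio of -0.15 (interval -0.30 to 0.01). The other 5 ranged from -0.67 for *Kcnk6* to 1.12 for *Kcnk1*, which had 9 and 19 UMIs.

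Among the 8 auxiliary potassium channel subunits, *Kcne4*, an inhibitory partner of voltage-gated channels, had 387 UMIs (7.59 CPM) and 638 UMIs (12.9 CPM), a log2 ratio of 0.76 (interval 0.58 to 0.95). It rose in Dpp4-type cells, from 14 to 44 UMIs, with a log2 ratio of 1.59 (interval 0.69 to 2.57). All 14 came from cells with scores of 25 to 50, and none from those with 50 or more. In the library labelled *Bap1* ΔMPC these ranges had 29 and 15 UMIs. With Dpp4-type cells taken as those with a *Dpp4* UMI, the *Kcne4* ratio was 0.32, and with TMM factors it was also under 3-fold. *Kcne1l* had 368 UMIs (7.21 CPM) and 241 UMIs (4.86 CPM), a log2 ratio of -0.57 (interval -0.81 to -0.33), and the others apart from *Kcnmb4* ranged from -0.90 for *Kcnab1* to 0.33 for *Kcnip4*. *Kcnq1ot1* (chr7:143203458-143296549, minus strand), a long nuclear RNA transcribed antisense within the imprinted *Kcnq1* gene, held most UMIs of all symbols. It had 15655 UMIs (307 CPM, interval 302 to 312) in the library labelled *Bap1* WT against 13047 UMIs (263 CPM, interval 259 to 268) in that labelled *Bap1* ΔMPC, a log2 ratio of -0.22 (interval -0.25 to -0.19), while *Kcnq1* had 0 and 1 UMIs. Other nuclear RNAs had log2 ratios of -0.26 for *Malat1* and 0.26 for *Neat1*, so these RNAs did not share a direction.

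The 7 sodium channel genes were 4 pore and 3 beta subunits. *Scn2b*, which encodes beta 2, was the 1 sodium channel gene past 3-fold, with 15 UMIs (0.294 CPM) and 44 UMIs (0.888 CPM), a log2 ratio of 1.59 (interval 0.72 to 2.55), and 1.64 (interval 0.73 to 2.63) in other cells. Without cells with tendon or adipocyte markers, its ratio over all cells was 1.30, under 3-fold. Of all genes, 3.15% were past 3-fold higher over all cells, and 16.7% of those with 20 to 99 UMIs passed in either direction. With so few genes, 1 past 3-fold does not set the sodium family apart from all genes. *Scn3b* had 87 and 70 UMIs, with a ratio of -0.27.

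Of the pore subunits, *Scn7a*, which responds to extracellular sodium more than to voltage, had 3214 UMIs (63.000 CPM, interval 60.8 to 65.2) in the library labelled *Bap1* WT against 4096 UMIs (82.7 CPM, interval 80.2 to 85.3) in that labelled *Bap1* ΔMPC, a log2 ratio of 0.39 (interval 0.33 to 0.46). It had 28.5 CPM in Dpp4-type and 76.2 CPM in other cells of the library labelled *Bap1* WT, against 32.2 and 104 CPM in that labelled *Bap1* ΔMPC, and was thus higher in other cells of both libraries. *Scn2a* had 443 and 445 UMIs with a ratio of 0.05 (interval -0.14 to 0.24), *Scn8a* 53 and 44 with -0.23, and *Scn1a* 14 and 15 with 0.14. The intervals of *Scn2a*, *Scn8a* and *Scn1a* each hold 0, so no difference was detectable at this depth. *Scn4a*, the sodium channel of muscle fibers, had 1 and 2 UMIs and was under the minimum.

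Of the 16 calcium channel genes, 15 had a positive log2 ratio over all cells and 1, *Cacnb4*, a negative one, while with TMM factors *Cacna2d1* and *Cacng1* turned negative too, leaving 13 positive. Over all genes, 60.7% were positive without TMM factors, and that share was not taken with them. TMM factors moved ratios by 0.10, near the median of 0.0962 over all genes, so the 13 is not set against 60.7%. The intervals of *Cacna1g*, *Cacna1d*, *Cacnb2* and *Cacng1* hold 0. The 6 pore subunits were positive under both scalings. *Cacna1h*, a low-voltage T-type channel, had 10 UMIs (0.196 CPM, interval 0.0940 to 0.360) in the library labelled *Bap1* WT against 66 UMIs (1.33 CPM, interval 1.03 to 1.69) in that labelled *Bap1* ΔMPC, a log2 ratio of 2.76 (interval 1.80 to 3.89), and rose in other cells with one of 2.59 (interval 1.55 to 3.80). *Cacna1g*, a related T-type channel, had 1117 UMIs (21.9 CPM) and 1165 UMIs (23.5 CPM), a log2 ratio of 0.10 (interval -0.02 to 0.22). *Cacna1h* was thus low in the library labelled *Bap1* WT, while *Cacna1g* had similar levels in both. *Cacna1a*, the P/Q-type channel, had 2116 UMIs (41.5 CPM) and 2249 UMIs (45.4 CPM), a log2 ratio of 0.13 (interval 0.04 to 0.22), and *Cacna1c*, the L-type channel of smooth and heart muscle, had 221 UMIs (4.33 CPM) and 325 UMIs (6.56 CPM), a log2 ratio of 0.60 (interval 0.35 to 0.85). *Cacna1e*, the R-type channel, rose in other cells, with 17 UMIs (0.461 CPM) and 50 UMIs (1.44 CPM), a log2 ratio of 1.64 (interval 0.82 to 2.53). Without cells with tendon or adipocyte markers, it had 16 and 34 UMIs there and a ratio of 1.31 (interval 0.42 to 2.27), under 3-fold. *Cacna1s*, which encodes the voltage sensor of muscle fibers, had 5 and 2 UMIs and was under the minimum.

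Among alpha2delta subunits, which bring channels to the membrane, *Cacna2d1* had 4200 UMIs (82.3 CPM, interval 79.9 to 84.9) in the library labelled *Bap1* WT against 4296 UMIs (86.7 CPM, interval 84.1 to 89.4) in that labelled *Bap1* ΔMPC, a log2 ratio of 0.07 (interval 0.01 to 0.14). The rarer *Cacna2d2* and *Cacna2d3* had log2 ratios of 1.10 (interval 0.79 to 1.42) and 0.86 (interval 0.53 to 1.19) over all cells. Both rose in Dpp4-type cells, *Cacna2d2* from 12 to 45 UMIs with a ratio of 1.84 (interval 0.90 to 2.90), and *Cacna2d3* from 8 to 27 UMIs with 1.69 (interval 0.51 to 3.04). With Dpp4-type cells taken as those with a *Dpp4* UMI, these ratios were 0.54 and 0.35, under 3-fold.

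The beta subunits bind the pore inside the cell. *Cacnb4* had 138 UMIs (9.78 CPM, interval 8.21 to 11.6) in the library labelled *Bap1* WT against 44 UMIs (2.98 CPM, interval 2.17 to 4.000) in that labelled *Bap1* ΔMPC in Dpp4-type cells. It was high in the library labelled *Bap1* WT there and fell, with a log2 ratio of -1.71 (interval -2.24 to -1.22), while over all cells it had 345 and 139 UMIs and -1.27 (interval -1.56 to -0.98). *Cacnb3* had 1223 UMIs (23.97 CPM) and 1375 UMIs (27.8 CPM), a log2 ratio of 0.21 (interval 0.10 to 0.32), and *Cacnb1* and *Cacnb2* had 0.42 and 0.48. Of the gamma subunits, *Cacng4*, which also serves as an auxiliary subunit of AMPA receptors, had 40 UMIs (0.784 CPM, interval 0.560 to 1.07) in the library labelled *Bap1* WT against 159 UMIs (3.21 CPM, interval 2.73 to 3.75) in that labelled *Bap1* ΔMPC, a log2 ratio of 2.03 (interval 1.53 to 2.57). It rose in both classes of cells, with 1.89 (interval 0.81 to 3.14) in Dpp4-type and 2.09 (interval 1.51 to 2.70) in other cells. *Cacng7* had 690 UMIs (13.5 CPM) and 766 UMIs (15.5 CPM), a log2 ratio of 0.19 (interval 0.04 to 0.34), and *Cacng1* had 13 UMIs in each library.

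Within Dpp4-type cells, 43 members had 20 or more UMIs, and 10 of them differed over 3-fold between the libraries, against 3.52% of all genes. Of these, 8 were higher in the library labelled *Bap1* ΔMPC, against 1.89% of all genes, and 2 were lower, against 1.63%. By depth, 8 of 21 members with 20 to 99 UMIs passed against 11.7% of all genes, and 2 of 22 with 100 or more against 1.64%. The 2 were *Kcnj8* and *Cacnb4*, both lower. Within other cells, 67 members had 20 or more UMIs, and 12 differed over 3-fold, against 5.86%, with 11 higher against 3.68% and *Kcnv2* lower against 2.18%. By depth these were 10 of 29 members against 19%, and 2 of 38 against 3.22%, the 2 being *Kcnma1* and *Cacng4*. *Kcnma1* and *Cacng4* were also among those past 3-fold in Dpp4-type cells. With Dpp4-type cells taken as those with a *Dpp4* UMI, 6 members passed in them, and the ratios of *Kcnj8* (-1.11), *Cacnb4* (-1.37), *Kcna6* (1.48), *Kcne4* (0.32), *Cacna2d2* (0.54) and *Cacna2d3* (0.35) were under 3-fold. With cells thinned to 5000 UMIs, 5 members passed in Dpp4-type cells, where *Kcnj4* had 1.17, and in other cells *Kcnn4* (1.38), *Kcnj2* (1.26) and *Cacng4* (1.52) were under 3-fold. TMM factors left *Kcne4* at 1.51 in Dpp4-type cells, and *Cacna1e* at 1.53 and *Scn2b* at 1.52 in other cells, all under 3-fold. Without cells with tendon or adipocyte markers, *Cacna2d3* was at 1.53 in Dpp4-type cells, and 7 members passed in other cells, where *Kcnmb4* was at 1.5002, *Scn2b* at 1.41 and *Cacna1e* at 1.31, all under 3-fold, and *Kcnj15* and *Kcnd2* were under the minimum. Over all the ways of processing, the lowest ratio that *Scn2b* had in other cells was 1.26, and the lowest that *Kcnmb4* had there was 1.47. Counts under these alternatives stand without a share of all genes. Past 2-fold, 16 and 20 members differed in Dpp4-type and other cells, against 8.85% and 12.5% of all genes. Differences between the classes of cells in these ratios were not tested.

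More channel genes were lower than higher in Dpp4-type cells when set against other cells of the same library. In the library labelled *Bap1* WT, 17 of 53 members with 20 or more UMIs differed over 3-fold, against 10.1% of all genes, with 2 higher in Dpp4-type cells, against 3.01%, and 15 lower, against 7.06%. In the library labelled *Bap1* ΔMPC, 22 of 61 differed, against 9.69%, with 3 higher, against 2.19%, and 19 lower, against 7.49%. Among genes with 100 or more UMIs, 10 of 32 members passed against 7.08% in the former library, and 9 of 33 against 7% in the latter. With 20 to 99 UMIs, 7 of 21 passed against 24.4%, and 13 of 28 against 22.6%. Past 2-fold, 25 and 31 members differed, against 17.1% and 17% of all genes. Median log2 ratios of the members were -0.536 and -0.53, against -0.0219 and -0.0605 over all genes. With Dpp4-type cells taken as those with a *Dpp4* UMI, the counts were 8 and 11, and *Kcnn3* (1.54) and *Kcna2* (-1.10) in the library labelled *Bap1* WT and *Kcnq5* (1.37) and *Scn7a* (-1.15) in that labelled *Bap1* ΔMPC were under 3-fold. No share of all genes is given for these classes, so these counts are not set against one. The cells of 1 library are not replicates, and the comparison rests on the same Dpp4-type and other cells as those between the libraries.

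Among members with 100 or more UMIs, *Kcnk5*, *Kcnn3* and *Kcne1l* had the largest ratios toward Dpp4-type cells in both libraries. *Kcnn3* had 19.8 CPM in Dpp4-type and 4.80 CPM in other cells of the library labelled *Bap1* WT, against 25.3 and 8.60 CPM in that labelled *Bap1* ΔMPC, with log2 ratios of 2.05 (interval 1.77 to 2.33) and 1.56 (interval 1.34 to 1.78). *Kcne1l* had ratios of 1.496 (interval 1.19 to 1.80) and 0.59 (interval 0.20 to 0.97), under 3-fold. *Kcnq5*, with 58 UMIs in the library labelled *Bap1* ΔMPC, was higher in Dpp4-type cells there, with a ratio of 3.50 (interval 2.50 to 4.65), as was *Kcnab3* at 1.95 (interval 0.79 to 3.17). At its lowest over the ways of processing, the *Kcnab3* ratio was 1.57, under 3-fold. The largest ratios toward other cells in the library labelled *Bap1* WT were those of *Kcnc4*, *Cacna1g* and *Kcne4*, and in that labelled *Bap1* ΔMPC those of *Kcna2*, *Kcnc4* and *Kcne4*.

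*Cacna1g* had 2.05 CPM in Dpp4-type and 29.5 CPM in other cells of the library labelled *Bap1* WT, against 5.96 and 30.97 CPM in that labelled *Bap1* ΔMPC, with log2 ratios of -3.84 (interval -4.43 to -3.31) and -2.38 (interval -2.71 to -2.06). Its level in Dpp4-type cells was low in the library labelled *Bap1* WT, and less low in the library labelled *Bap1* ΔMPC. *Kcne4* had 0.992 CPM in Dpp4-type and 10.1 CPM in other cells of the library labelled *Bap1* WT, against 2.98 and 17.1 CPM in that labelled *Bap1* ΔMPC, with ratios of -3.35 (interval -4.23 to -2.58) and -2.52 (interval -3.00 to -2.08). In the library labelled *Bap1* WT it had 2.67 CPM in cells with scores of 25 to 50 and no UMI in those with 50 or more. The same ranges had 3.76 and 2.13 CPM in that labelled *Bap1* ΔMPC. *Kcna2* had 0.496 CPM in Dpp4-type and 3.90 CPM in other cells of the library labelled *Bap1* WT, against 1.15 and 10.9 CPM in that labelled *Bap1* ΔMPC, with ratios of -2.98 (interval -4.32 to -1.90) and -3.24 (interval -4.03 to -2.54). Each of the 3 was thus lower in Dpp4-type cells of both libraries. *Kcnc4*, a rapidly activating voltage-gated potassium subunit, had ratios of -3.98 (interval -6.28 to -2.40) and -3.11 (interval -4.77 to -1.85), with 3 and 5 UMIs in Dpp4-type cells. *Kcnb2*, a delayed rectifier subunit, had no UMI in Dpp4-type cells of the library labelled *Bap1* WT against 65 in its other cells (8.29-fold lower with 3 counts in place of 0, and an exact upper limit of -2.71 for the log2 ratio), and 1 against 81 in that labelled *Bap1* ΔMPC, where the log2 ratio was -5.10 (interval -10.43 to -2.59). With Dpp4-type cells taken as those with a *Dpp4* UMI, its ratio in the library labelled *Bap1* WT was -1.16, under 3-fold.

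**Figure D3:**
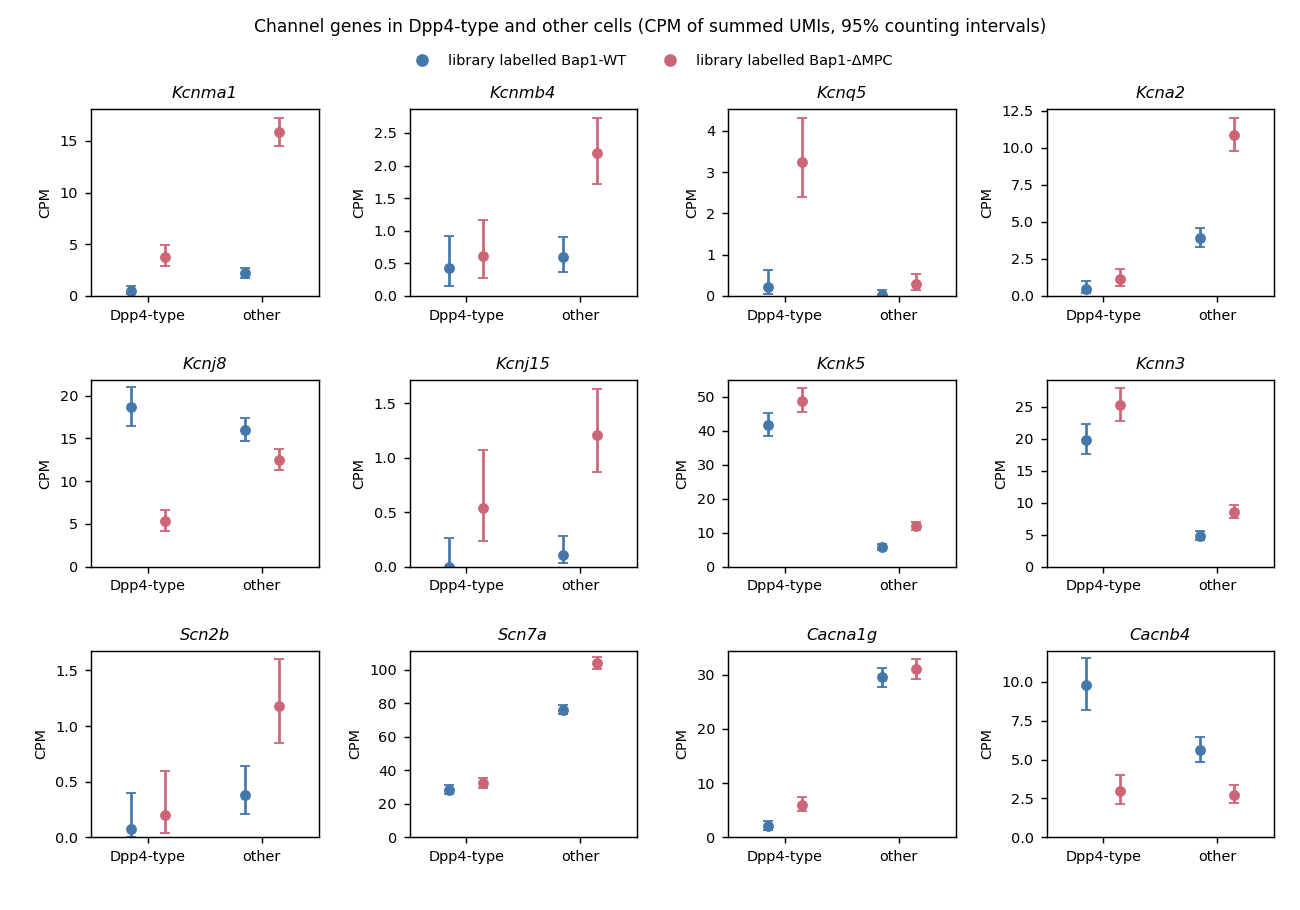
CPM of 12 channel genes in Dpp4-type and other cells of both libraries, named by their labels, with 95% counting intervals; each panel has its own axis from 0. *Kcnma1* reaches 15.8 CPM in other cells of the library labelled *Bap1* ΔMPC against 2.20 CPM in those of that labelled *Bap1* WT, *Kcnj8* is lowest in Dpp4-type cells of the library labelled *Bap1* ΔMPC, and *Kcnk5* and *Kcnn3* are higher in Dpp4-type cells of both.

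Other genes of membrane excitability were read from lists compiled by hand. Of 35 partners of channels, such as ankyrins and fibroblast growth factor homologs, 29 had 20 or more UMIs, and 1 was past 3-fold higher and 1 lower over all cells, near the 3.15% and 2.12% of all genes. *Fgf13*, an intracellular regulator of sodium channels, had 29 UMIs (0.568 CPM) and 149 UMIs (3.01 CPM), a log2 ratio of 2.40 (interval 1.82 to 3.03). *Ank3*, the ankyrin that anchors sodium and KCNQ channels, had 1150 UMIs (22.5 CPM) and 351 UMIs (7.09 CPM), for a ratio of -1.67 (interval -1.85 to -1.50), and one of -2.23 (interval -2.59 to -1.89) in Dpp4-type cells. These moved opposite ways. Of 64 other cation and anion channels in the tables, 38 had 20 or more UMIs, with 2 past 3-fold higher and 1 lower, against the same 3.15% and 2.12%. *Trpc5*, a calcium-permeable cation channel, had 4 UMIs (0.0784 CPM) and 167 UMIs (3.37 CPM), a log2 ratio of 5.43 (interval 4.04 to 7.32), and *Scnn1b*, an epithelial sodium channel subunit, had 1 and 36 UMIs and 5.21 (interval 2.64 to 10.55). *Ano2*, a calcium-activated chloride channel, had 87 UMIs (1.71 CPM) and 16 UMIs (0.323 CPM), a log2 ratio of -2.40 (interval -3.27 to -1.62).

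Of 31 genes of calcium stores, pumps and exchangers, 27 had 20 or more UMIs, with 2 past 3-fold higher, against 3.15% of all genes, and none lower, against 2.12%. Of these, *Slc8a3*, a sodium-calcium exchanger, had 43 UMIs (0.843 CPM) and 241 UMIs (4.86 CPM), a log2 ratio of 2.53 (interval 2.06 to 3.03). Median log2 ratios over the 3 lists were 0.23 for partners, 0.22 for other channels and 0.28 for stores and pumps, each above the 0.0962 of all genes and below the 0.325 of the channel genes.

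Members just inside the minimum of 20 UMIs included *Kcnh2*, with 15 and 7 UMIs, *Kcnh1*, with 7 and 19, and *Cacng1*. Just outside were *Kcnj13*, with 16 and 2 UMIs, *Kcnip2* with 12 and 5, *Kcnrg* with 6 and 10 and *Kcna1* with 5 and 9. Ratios of such genes have wide intervals, as for *Kcnh2* at -1.06 (interval -2.59 to 0.32).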

How the data were processed

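The deposited tables hold counts of UMIs, 1 table per library, which the authors did not normalize. Per the labels, they used FastQC 0.11.7, bcl2fastq 2.20.0, Cell Ranger 3.1.0 (mm10), R 3.6.1 and Seurat 3.2.1. Their methods state that doublets and non-FAPs were removed. No further cells were removed here. UMIs were summed per library over all, Dpp4-type or other cells and scaled to CPM. Genes entered a comparison with 20 or more UMIs in it, 3 counts stood in for a count of 0, and ratios carry exact conditional 95% intervals. With 1 library per genotype there is no test between them. The script for the ratios was run on simulated counts beforehand, as a check of the code alone. Full values are given for the 12 members with the most UMIs, each member past 3-fold between libraries, the 3 largest ratios of each direction between classes with 100 or more UMIs, partner genes past 3-fold and members nearest the minimum. Some genes that this rule covers are not reported here. Other genes named were picked after their values were seen. Members and lists were chosen with earlier results of these data known. Positions are from GENCODE for the same build. Leaving out *Kcnq1ot1*, cells with tendon or adipocyte markers, or cells with *Rgs5*, *Myh11* or *Mcam* UMIs was chosen after seeing the data. Python 3.11.15, numpy 2.4.6, scipy 1.17.1, pandas 2.3.3 and R 4.3.3 were used, with edgeR 4.0.16 for TMM factors alone.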

Additional observations from a re-analysis of the deposited data

Results flagged for a closer look

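The log2 ratio of *Kcnj8* in Dpp4-type over other cells had opposite signs in the libraries, at 0.22 (interval 0.00 to 0.43) in the library labelled *Bap1* WT and -1.24 (interval -1.61 to -0.89) in that labelled *Bap1* ΔMPC. The first lies close to 0. Without cells with tendon or adipocyte markers it was 0.12 (interval -0.10 to 0.34), which holds 0, and the second was -1.50 (interval -1.88 to -1.13). In the library labelled *Bap1* WT, cells with scores of 25 to 50 had 24.8 CPM and those with 50 or more had 15.005 CPM, against 16.02 CPM in other cells, so the positive ratio rests on cells with scores nearer the minimum of 25. The difference between the libraries was not tested, since there is 1 library of each genotype.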

How the results depend on the processing

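No paired analysis was possible because there is 1 library for each genotype, and nothing was tested. Counts of members past 3-fold are given in the order all cells, Dpp4-type cells, other cells, and Dpp4-type against other cells in the libraries labelled *Bap1* WT and *Bap1* ΔMPC. With 100 or more UMIs they were 3, 2, 2, 10 and 9, since fewer genes enter. The shares of all genes there were 3.11%, 1.64%, 3.22%, 7.08% and 7%. With 5 or more UMIs there were 21 over all cells and 22 in other cells, since more genes enter. Genes with few UMIs passed 3-fold more often, and no share of all genes was taken at this minimum. None was taken either with thinned cells, with *Dpp4* UMI classes or with cells left out. The counts at these settings are thus not set against all genes. Past 2-fold the first 3 counts were 21, 16 and 20, against 12%, 8.85% and 12.5% of all genes. With cells thinned to 5000 UMIs, 5 passed in Dpp4-type cells and 10 between classes in the library labelled *Bap1* WT. With Dpp4-type cells taken as those with a *Dpp4* UMI, there were 6 in Dpp4-type cells, and 8 and 11 between classes. Without cells with tendon or adipocyte markers, 7 passed in other cells. The potassium sum had a log2 ratio of -0.16 with TMM and with median-ratio factors, 0.21 without *Kcnq1ot1* and -0.0888 without cells with *Rgs5*, *Myh11* or *Mcam* UMIs. The sodium sum had 0.50 with either scaling and 0.55 with thinned cells. The calcium sum had 0.0662 with TMM and 0.0666 with median-ratio factors, 0.12 with thinned cells and 0.11 without cells with tendon or adipocyte markers. Of single genes between classes, *Kcna6* at 0.32, *Cacnb2* at 0.22 and *Kcng1* at 1.13 changed sign in the library labelled *Bap1* WT with thinned cells, and *Kcnj2* at 0.10 in that labelled *Bap1* ΔMPC with the *Dpp4* UMI classes. Apart from the changes shown by construction, the cause was not tested. In the remaining comparisons, 63 values of counts and sums stayed within their limits and 27 are those above, while among single genes 635 stayed, 48 moved and 4 turned. Depth limits the members with under 100 UMIs most.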

Other observations

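Among channel symbols under the minimum, *Cacna1b*, the N-type calcium channel of nerve endings, had 0 and 11 UMIs in the libraries labelled *Bap1* WT and *Bap1* ΔMPC, and *Cacng5* had 0 and 6. *Kcnj13* had 16 and 2, and *Kcnip1* and *Kcnk4* 4 and 0 each. *Kcnj11*, the relative of *Kcnj8* in ATP-sensitive channels, had 3 and 1. No ratio is given for these, since their counts are few.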
